A study of Mus musculus with 8 samples.

Results

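The cilium and axoneme genes of mouse stomach organoids are described here, 129 rows of a table of 56691 genes. They were taken by symbol alone: axonemal dynein chains (Dnah, Dnai, Dnal) and their assembly factors (Dnaaf), cilia and flagella associated proteins (Cfap), radial spoke (Rsph), intraflagellar transport (Ift) and Bardet-Biedl (Bbs) genes, tektins (Tekt), the Spag family, RFX factors, and a few single genes such as Foxj1, Efcab1, Hydin, Mcidas, Gmnc, Arl13b and Tctn1. A choice by name also takes in genes with no known part in cilia, among them the mitotic spindle gene Spag5, the defensin-type genes Spag11a and Spag11b and the MHC class II regulator Rfx5. The organoids are 3-dimensional cultures of epithelium of the embryonic hindstomach (day 18.5), which gives rise to the glandular stomach. All cultures had 5 days in growth medium and then 7 days in differentiation medium. The 4 control libraries (Ctrl) have the genotype Shh-Cre and the 4 others Shh-Cre;YAP5SA, so both groups carry the Cre recombinase, here under control of Shh, a gene of the gut epithelium. YAP5SA is a form of the Hippo pathway coactivator YAP that escapes inhibitory phosphorylation. The labels name no embryo, litter or culture day behind a replicate, so that p-values measure the spread between these samples, which may be technical.

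Cilia are microtubule-based projections of the cell surface. Most epithelial cells can form a single primary cilium, a non-motile signalling organelle built by intraflagellar transport (IFT), sorted by the BBSome and gated by a transition zone at its base. Motile cilia, as on airway and oviduct cells, add dynein arms, radial spokes and a central pair of microtubules, and their genes are switched on by FOXJ1 together with RFX factors. The glandular stomach is not known as a multiciliated epithelium.

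Total counts per library were between 17387372 and 25841256, and the members held 0.0864% to 0.0975% of them in Ctrl and 0.124% to 0.138% in YAP5SA. Of the 7 epithelial identity genes examined, all were detected, with a summed level of 18626 to 20884 CPM (counts scaled to library size) in Ctrl and 10062 to 11804 in YAP5SA. The groups also differ in sex-linked transcripts: Xist had 8436 to 12237 counts in Ctrl libraries and 0 to 8 in YAP5SA libraries, while the Y-linked Ddx3y had 0 counts in Ctrl and 2291 to 2686 in YAP5SA. Genotype and these transcripts cannot be told apart in any comparison below. Cfap47 is a member on the X chromosome. Yap1 was at 108 to 133 CPM in Ctrl and 138 to 142 CPM in YAP5SA, and whether reads of the transgene were counted to it is not given in the sources used here.

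Of the 129 members, 8 had no count in any library, 51 had counts but fell under the filter on low counts, and 70 were tested. With the quasi-likelihood test of edgeR (Benjamini-Hochberg adjustment over 13812 genes, threshold 0.05), the comparison called 39 of the 70 higher and 5 lower in YAP5SA, and 26 were not called. That is 62.9% of the tested members, against 64.5% called among all genes tested, so that the share of called members is near the background. The directions were split differently: 55.7% of tested members were higher, against a background of 33.1%, and 7.14% were lower, against a background of 31.3%. All 4 YAP5SA libraries lay above all Ctrl libraries for 37 tested members, or 52.9%, against a background of 30.4%, and below them for 7, or 10.0%, against 28.3%, so that 26 overlapped; over all genes tested 58.7% did not overlap. The median log2 fold change (YAP5SA minus Ctrl throughout, and meant by any value in brackets that stands before an SE or an adjusted p) was 0.43 over tested members and 0.02 over all genes tested. With scaling by library size alone, 50 members were called higher and 4 lower, and the median of all genes moved to 0.19. The filter keeps a gene that is high in a single group, so that such a member had to differ; 9 tested members did not reach the filter's 0.535 CPM in all 8 libraries, among them Tekt5, Cfap54 and Dnaaf3, which reached it in no Ctrl library. Among the 61 members that reached it in all 8, 33 were higher, 4 lower and 24 not called, with 54.1% higher against 31.8% of the 11971 genes that did so. As these are bulk libraries, a gene at lower level in each cell and fewer cells that express it cannot be told apart.

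**Figure D1:**
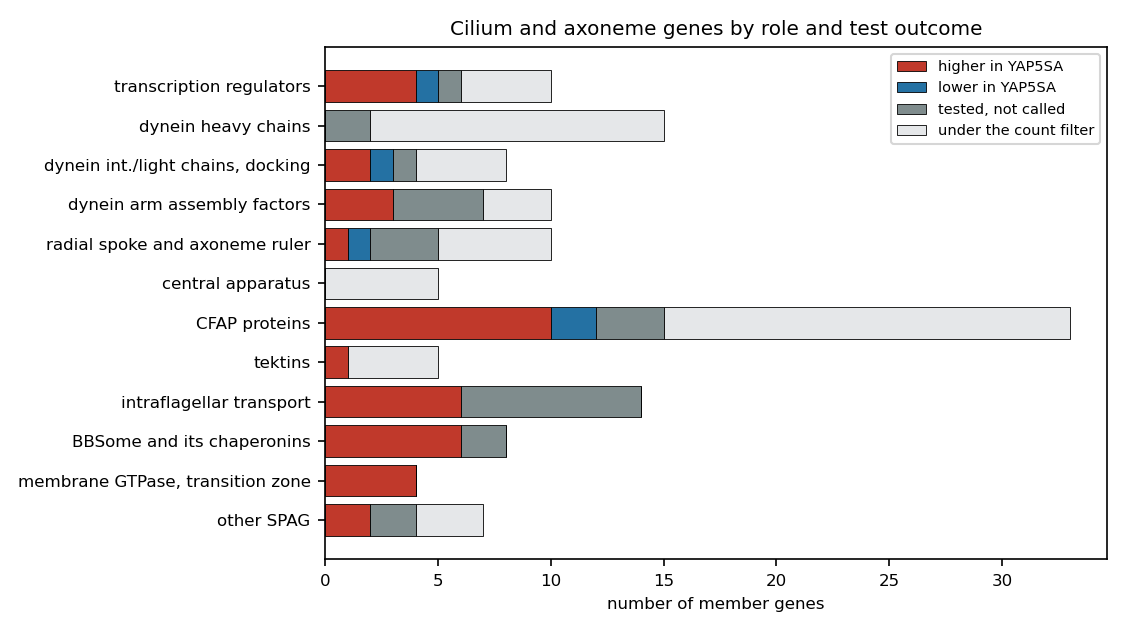
Number of member genes in each of 12 roles (bars), divided by test outcome: higher in YAP5SA (red), lower (blue), tested and not called (dark grey) and under the filter on low counts (light grey). All transport, BBSome and transition zone members were tested. Under the filter were 13 of 15 dynein heavy chains and all 5 genes given the central apparatus role by name.

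Transcription regulators come first. Foxj1, the forkhead factor that drives motile ciliogenesis, was at 1.13, 0.889, 1.04 and 1.17 CPM across Ctrl replicates 1 to 4, against 10.2, 12.3, 9.86 and 12.6 CPM across the YAP5SA replicates in the same order. Every YAP5SA library was far above every Ctrl library, and the spread within a group was small. The log2 fold change was 3.4 (SE 0.19, adjusted p = 1.73e-09), a 10.6-fold difference. The RFX factors bind the X-box, a promoter element common in ciliary genes, and 2 of those tied most closely to ciliogenesis rose. Rfx2 was at 4.17, 3.14, 2.63 and 4.08 CPM in Ctrl and 5.77, 5.05, 5.38 and 6.34 CPM in YAP5SA, a log2 fold change of 0.69 (SE 0.19, adjusted p = 0.00625), without overlap. Rfx3 was at 3.16, 2.96, 2.96 and 1.62 CPM in Ctrl and 4.63, 3.90, 5.86 and 3.38 CPM in YAP5SA (0.73, SE 0.25, adjusted p = 0.0202). Ctrl replicate 4 was the low library for Rfx3, and without it the value was 0.53 and not called (adjusted p = 0.0585), as also without YAP5SA replicate 3 (0.56, adjusted p = 0.0793). Rfx1, a broadly expressed family member, went the other way, from 7.84, 11.4, 8.30 and 11.4 CPM in Ctrl to 4.72, 3.59, 4.74 and 5.25 CPM in YAP5SA (-1.08, SE 0.18, adjusted p = 0.000124), again with no overlap. Rfx5 was at 0.36 (adjusted p = 0.0228), a call that ended without any of 5 libraries, Ctrl replicate 2 (adjusted p = 0.0663) or 3 (0.0943) and YAP5SA replicate 1 (0.0714), 2 (0.0594) or 3 (0.0514). Rfx7 did not pass the test (0.09, adjusted p = 0.403). Neither of the regulators that launch multiciliated cell formation was measurable: Gmnc had 0 counts in all libraries and Mcidas a single count, in YAP5SA replicate 4. Rfx4 and Rfx6, factors of neural and endocrine cells, had 0 counts as well. In these libraries 3 counts, the limit that a count of 0 allows, equal 0.116 to 0.173 CPM, and lower levels could not be detected at this depth.

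The promoters show what the members share in sequence. A promoter, taken from RefSeq (GRCm38.p6) as 250 bases before to 50 bases after the listed start, was found for 100 of the 129 members. The short RFX site that makes up one side of the X-box, searched as GTTGCC on both strands, was in a promoter of 43 of these 100 genes, against 14.1% of the 27025 genes with a promoter in that table and 14.6% of the 10116 tested genes that are no member. By outcome it was in 41.9% of 31 members called higher, 40.0% of 20 not called and 44.4% of 45 not tested, with 2 of the 4 called lower. The whole palindrome, searched as GTTNCC and GGNAAC with 1 to 3 bases between them, was in 6 of the 100 genes (Cfap298, Tctn1, Tctn3, Bbs7, Ift57 and Dnaaf6) and in 0.903% of all genes. Its matches overlap those of the short site. The forkhead motif TGTTTAC, on both strands, was in 4 members (4.0%), against 4.05% of all genes. A match describes these letters and not a bound site, and the motifs were chosen with the results known.

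**Figure D2:**
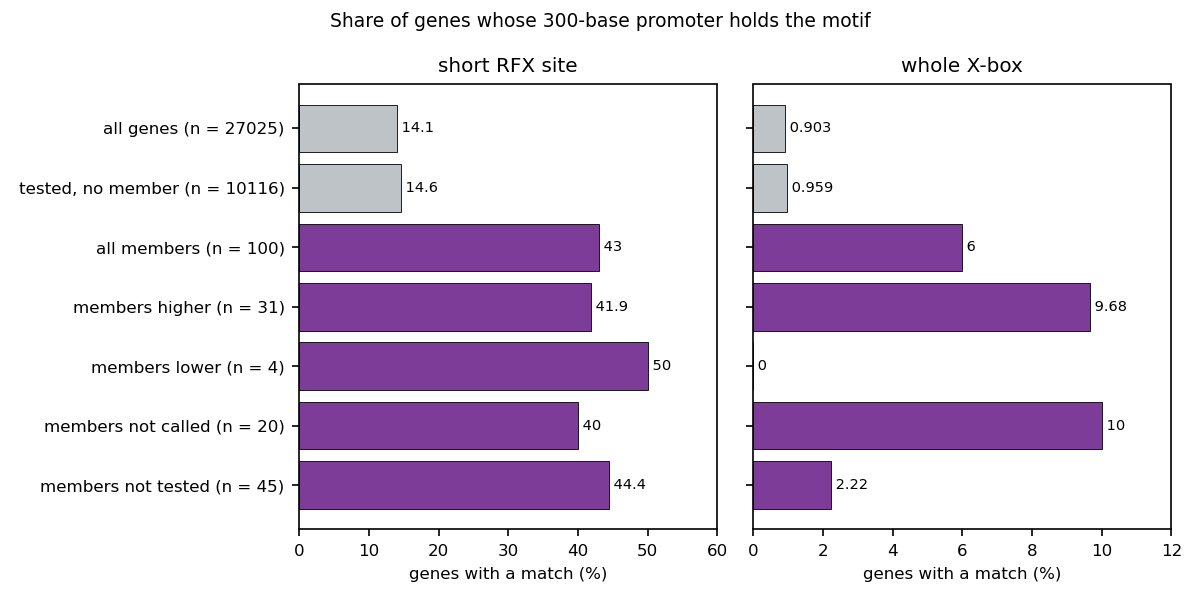
Share of genes (percent, horizontal axis) whose 300-base promoter holds the short RFX site GTTGCC (left) or the whole X-box (right), for all genes, for tested genes that are no member and for members by test outcome, with the number of genes in brackets. The short site was in 43.0% of members and 14.1% of all genes, at 40.0% or more in each class of members.

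To show the element in genes that rose and in genes that did not pass the test, the 250 bases before the start are given, 5′ to 3′ on the strand of the gene, with whole X-boxes and short sites in capitals. Cfap298 and Tctn3 were called higher, and Bbs7 and Ift57 were not called. The windows are chr16:90934850-90935099 (minus strand), chr19:40612232-40612481 (minus strand), chr3:36613390-36613639 (minus strand) and chr16:49699044-49699293 (plus strand), all on GRCm38.p6.
Cfap298: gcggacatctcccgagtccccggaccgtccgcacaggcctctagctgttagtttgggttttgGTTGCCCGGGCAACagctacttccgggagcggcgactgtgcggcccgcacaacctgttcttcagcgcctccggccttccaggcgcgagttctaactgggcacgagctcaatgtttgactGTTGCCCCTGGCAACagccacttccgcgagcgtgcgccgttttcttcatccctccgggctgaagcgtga
Tctn3: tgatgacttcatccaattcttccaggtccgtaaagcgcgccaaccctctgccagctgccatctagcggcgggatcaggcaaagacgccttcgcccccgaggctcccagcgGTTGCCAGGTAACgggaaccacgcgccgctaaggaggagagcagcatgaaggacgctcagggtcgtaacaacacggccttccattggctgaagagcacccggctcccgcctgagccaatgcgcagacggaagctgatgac
Bbs7: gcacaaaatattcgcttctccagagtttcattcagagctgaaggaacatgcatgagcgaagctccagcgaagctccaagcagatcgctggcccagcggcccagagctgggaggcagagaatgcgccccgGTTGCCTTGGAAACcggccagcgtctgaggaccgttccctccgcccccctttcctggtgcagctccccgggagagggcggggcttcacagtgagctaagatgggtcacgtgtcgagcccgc
Ift57: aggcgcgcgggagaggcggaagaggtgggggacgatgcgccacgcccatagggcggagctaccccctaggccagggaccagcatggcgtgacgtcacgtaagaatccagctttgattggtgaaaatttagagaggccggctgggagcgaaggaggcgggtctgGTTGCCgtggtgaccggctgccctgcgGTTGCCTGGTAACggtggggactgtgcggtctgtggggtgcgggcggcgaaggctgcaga
Cfap298 holds 2 whole X-boxes, at -188 to -175 and -69 to -55 counted from the listed start as 0, and Tctn3 holds 1 at -140 to -128. Bbs7 has its X-box at -121 to -108 and Ift57 at -60 to -48, with a further short site at -87 to -82.

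Intraflagellar transport genes were all tested, 14 of 14. Of these, 6 rose, none fell and 8 were not called, with a median log2 fold change of 0.28. The share called, 42.9%, is under the 64.5% of all genes tested, 33.1% of which were higher. The trains have a B complex that carries cargo outward with kinesin-2 and an A complex needed for the way back with dynein-2. All 6 called genes are among the 11 members of the B complex, and the 3 members of the A complex were not called. This split did not hold for Ift43 under some other settings. The A complex gene Wdr35, outside the symbol rule, rose, as given below. Whether the complexes differ was not tested. Ift80 was at 9.76, 8.35, 9.72 and 5.75 CPM in Ctrl and 22.3, 18.2, 18.0 and 16.7 CPM in YAP5SA, and its 1.16 (SE 0.16, adjusted p = 2.47e-05) was the steepest rise of the 14. Ift74 and Ift81, which together bind tubulin cargo, rose by similar amounts. For Ift74 the levels were 15.6, 11.1, 9.55 and 9.89 CPM in Ctrl and 17.5, 19.0, 17.3 and 17.8 CPM in YAP5SA (0.64, SE 0.15, adjusted p = 0.00165), and for Ift81 16.4, 14.3, 16.6 and 12.6 and 26.8, 25.9, 20.3 and 17.7 CPM (0.59, SE 0.14, adjusted p = 0.00249). Groups did not overlap for any of these 3 genes. Ift172, the largest B subunit, was at 11.2, 12.9, 16.7 and 6.31 CPM in Ctrl and 19.1, 21.0, 19.2 and 15.4 CPM in YAP5SA (0.66, SE 0.22, adjusted p = 0.0162). Here Ctrl replicate 3 overlapped the YAP5SA range, and Ctrl replicate 4 was the low library. Without Ctrl replicate 4 Ift172 was at 0.43 and still called (adjusted p = 0.0272). Smaller rises were those of Ift46 (0.31, adjusted p = 0.00756) and Ift22 (0.33, adjusted p = 0.0199), of which Ift22 lost its call without Ctrl replicate 4 (0.21, adjusted p = 0.0813) and likewise once YAP5SA replicate 1 was left out (0.31, adjusted p = 0.0531).

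Ift88, a core B subunit without which cilia fail to form, was nearly level, at 18.3, 14.7, 17.7 and 13.6 CPM in Ctrl and 16.5, 15.5, 17.3 and 15.2 CPM in YAP5SA (-0.0032, SE 0.12, adjusted p = 0.983). Of the A complex, Ift140 was at -0.21 (adjusted p = 0.154), Ift122 at 0.10 (adjusted p = 0.646) and Ift43 at 0.24 (adjusted p = 0.0580). Ift43 was called without Ctrl replicate 1 (0.27, adjusted p = 0.0455), without YAP5SA replicate 4 (0.29, adjusted p = 0.0232) and with library-size scaling (0.41, adjusted p = 0.00485). Ift57 was at 0.32 (adjusted p = 0.0921) and called without Ctrl replicate 1 (0.51, adjusted p = 0.00124), and Ift52 was at 0.25 (adjusted p = 0.0930) and called without YAP5SA replicate 4 (0.35, adjusted p = 0.0153). With library-size scaling, which called 41.6% of all genes higher, 9 of the 14 were called higher. Ctrl replicate 4 had the lowest Ctrl level for 10 of the 14 transport genes (71.4%), and for 26.2% of the 13742 tested genes that are no member. Its part in the differences was not tested beyond the values without it, under which 5 of the 14 were called higher.

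The BBSome, an adaptor that moves membrane proteins in and out of the cilium, had 6 subunit genes among the members, of which 5 rose and 1 was not called. That is 83.3% higher, while of all genes tested 33.1% were higher and 64.5% were called. Outside the symbol rule, the subunit genes Bbip1 and Ttc8 were not called and the chaperonin-like gene Mkks fell, as given at the end. Bbs5 was at 9.03, 7.46, 8.63 and 8.16 CPM in Ctrl and 22.6, 29.8, 20.9 and 26.3 CPM in YAP5SA, a log2 fold change of 1.58 (SE 0.13, adjusted p = 1.39e-07). Bbs9 went from 5.98, 4.21, 5.71 and 4.52 CPM to 10.7, 14.2, 11.2 and 10.9 CPM (1.19, SE 0.16, adjusted p = 1.85e-05). Both were separated clearly between groups. Bbs1, which recruits the complex to membranes through the GTPase ARL6, was at 0.621, 1.24, 1.63 and 0.838 CPM in Ctrl and 2.50, 2.91, 2.08 and 1.96 CPM in YAP5SA (1.10, SE 0.31, adjusted p = 0.00699). Bbs2 was at 0.63 (SE 0.15, adjusted p = 0.00190) and Bbs4 at 0.62 (SE 0.17, adjusted p = 0.00669), each without overlap, while Bbs7 was at 0.38 (adjusted p = 0.179). Of the chaperonin-like genes that assemble the complex, Bbs12 was at 1.13, 0.652, 0.917 and 2.57 CPM in Ctrl and 2.82, 3.64, 3.25 and 4.29 CPM in YAP5SA (1.41, SE 0.35, adjusted p = 0.00282), with Ctrl replicate 4 nearest to the YAP5SA range. Bbs10 was at 0.44 and not called (adjusted p = 0.0560), though it was called without YAP5SA replicate 1 (0.53, adjusted p = 0.0350).

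All 4 members given the ciliary membrane and transition zone role rose, while 33.1% of all genes tested were higher. Outside the symbol rule the outcome was mixed. Of 21 further transition zone genes tested, 8 rose, 4 fell and 9 were not called. Of 21 ciliary membrane trafficking genes tested, 10 rose, 6 fell and 5 were not called. Arl13b, a GTPase of the ciliary membrane and a common marker of cilia, was at 17.7, 17.7, 16.6 and 17.9 CPM in Ctrl and 25.9, 28.1, 26.6 and 26.5 CPM in YAP5SA, a difference of 0.62 (SE 0.09, adjusted p = 2.82e-05) with tight groups. Tctn1, a tectonic of the transition zone, was at 8.07, 8.89, 7.26 and 8.27 CPM in Ctrl and 18.8, 20.2, 19.0 and 16.8 CPM in YAP5SA (1.2, SE 0.12, adjusted p = 6.70e-07). Its relatives Tctn3 and Tctn2 were at 0.92 (SE 0.15, adjusted p = 0.000126) and 0.65 (SE 0.13, adjusted p = 0.000700). None of the 4 groups of values overlapped between genotypes. Counting transport, BBSome and transition zone genes together, 16 of 26 were called higher, 0 lower and 10 not called, with a median of 0.61. The share called, 61.5%, is near the 64.5% of all genes tested, of which 33.1% were higher and 31.3% lower.

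**Figure D3:**
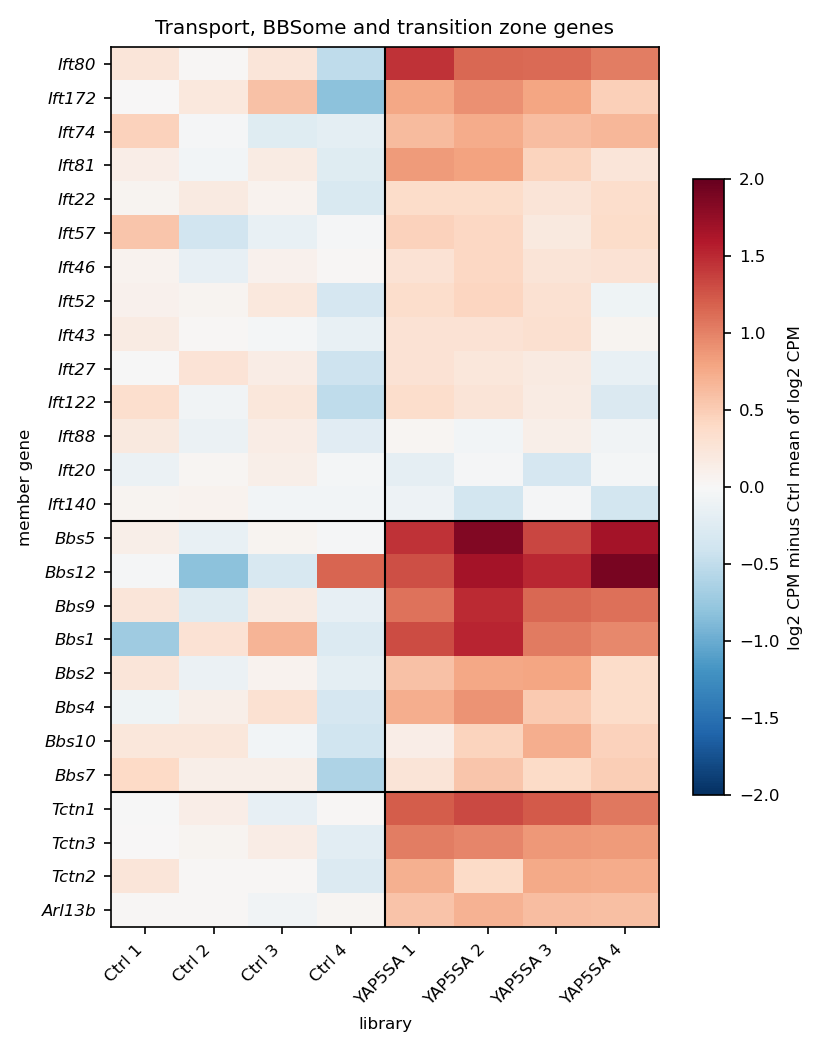
Log2 CPM of each library (columns) minus the mean log2 CPM of the 4 Ctrl libraries (colour scale, log2 units) for the 26 transport, BBSome and transition zone genes (rows, ordered by log2 fold change within each role, roles divided by lines). Red prevails in the 4 YAP5SA columns from Ift80 to Ift46 and in the BBSome and transition zone rows, and Ctrl replicate 4 is blue in most transport rows.

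Genes of the motile axoneme had low counts in most cases. Over heavy chains, other dynein chains, assembly factors, spokes, central apparatus and tektins, 19 of 53 members were tested, 31 had counts under the filter and 3 had none. Of the 19, 7 were called higher, 2 lower and 10 not called. Tekt5 and Dnaaf3, both among the 7, passed the filter through YAP5SA alone and had to differ. The share higher, 36.8%, is near the 33.1% of all genes tested, and the share called, 47.4%, is under their 64.5%. Cfap genes tied to these structures are counted apart, with their family. Dynein heavy chains, the motors of the arms, were nearly absent from the libraries: 13 of 15 were not tested, with 0 to 60 counts over all 8 libraries. Dnah5, the main outer arm motor, had 0 counts in every library. Dnah1, an inner arm motor, had 0 counts in Ctrl and 5 in YAP5SA. Dnah7b and Dnah7c passed the filter and were not called (0.22, adjusted p = 0.471, and 0.08, adjusted p = 0.830); they are near-identical copies whose reads could be split in the counting. Dnah9, an outer arm motor, had 22, 1, 8 and 8 counts across Ctrl replicates, against 1, 3, 3 and 5 for YAP5SA, and 22 of its 39 Ctrl counts lie in replicate 1.

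Efcab1 encodes calaxin, a calcium-binding protein that tethers outer dynein arms. It had 654, 488, 786 and 516 counts across Ctrl replicates 1 to 4, against 4, 3, 3 and 15 across the YAP5SA replicates, which gives 36.9, 28.9, 32.8 and 28.8 CPM and 0.182, 0.156, 0.160 and 0.684 CPM. The 4 Ctrl libraries were close to each other, and YAP5SA replicate 4 stood above the other three of its group. The log2 fold change was -6.68 (SE 0.27, adjusted p = 8.94e-11), or 103-fold lower, and -7.53 without YAP5SA replicate 4. In the same role, the outer arm light chain gene Dnal1 rose from 11.2, 8.35, 7.76 and 6.26 CPM to 26.2, 28.4, 23.4 and 17 CPM (1.5, SE 0.18, adjusted p = 7.06e-06). Dnai4, an intermediate chain gene, was at 3.33, 2.90, 4.46 and 3.30 CPM in Ctrl and 5.90, 5.78, 6.29 and 5.38 CPM in YAP5SA (0.73, SE 0.18, adjusted p = 0.00285), and Dnal4 was not called (0.24, adjusted p = 0.156). Partners needed in a motile cilium were barely present: Dnai1 had 1 count in Ctrl and 0 in YAP5SA, Dnai2 had 6 and 27, and the inner arm light chain gene Dnali1 had 1 and 11 (ratio 11.6, 95% exact counting interval 1.69 to 499).

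Assembly factors, which preassemble dynein arms in the cytoplasm, gave 3 rises among 7 tested. The share called, 42.9%, is under the 64.5% of all genes tested, 33.1% of which were higher. Cfap300 and Cfap298, also linked to arm assembly, are counted with the Cfap family below. Dnaaf3 rose from 0.282, 0.533, 0.459 and 0.112 CPM to 1.18, 1.93, 1.6 and 1.0 CPM (2.0, SE 0.42, adjusted p = 0.000834). Dnaaf3 reached the filter's 0.535 CPM in no Ctrl library, so that it passed through YAP5SA alone and had to differ. Dnaaf5 showed little spread within groups, with 10.4, 10.5, 10.3 and 10.7 CPM in Ctrl and 15.4, 13.5, 15.2 and 15.5 CPM in YAP5SA (0.51, SE 0.11, adjusted p = 0.000908). Dnaaf9 was at 0.51 (SE 0.09, adjusted p = 0.000176). Those not called included Spag1 (0.31, adjusted p = 0.156) and Dnaaf8 (-0.44, adjusted p = 0.343). Dnaaf1, a gene mutated in primary ciliary dyskinesia, had 13 counts in Ctrl and 3 in YAP5SA and was not tested. Dnaaf6 had 0 counts in all libraries.

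Radial spokes and the ruler that sets their spacing gave 1 rise and 1 fall among 5 tested (40% called, against 64.5% of all genes tested). Rsph9, a spoke head gene, was at 4.40, 5.03, 4.92 and 3.91 CPM in Ctrl and 6.77, 7.65, 6.93 and 6.34 CPM in YAP5SA (0.60, SE 0.16, adjusted p = 0.00426). Rsph3b was at 14.3, 12.1, 11.3 and 11.3 and 10.0, 9.94, 9.01 and 8.16 CPM (-0.40, SE 0.13, adjusted p = 0.0162), and was not called with library-size scaling (-0.22, adjusted p = 0.173). Its close copy Rsph3a was at 0.19 (adjusted p = 0.127), and reads of the pair may have been divided between them. Rsph1 was at -0.50 (adjusted p = 0.0768), with all Ctrl libraries above the YAP5SA libraries, and was called by limma-voom (-0.58, adjusted p = 0.0437), without YAP5SA replicate 2 (-0.65, adjusted p = 0.0389) and without the filter (-0.50, adjusted p = 0.0473). The ruler genes were scarce, Ccdc39 at 1.30, 2.78, 2.08 and 2.85 CPM in Ctrl and 2.45, 3.07, 3.62 and 2.92 in YAP5SA (0.42, adjusted p = 0.179). Ccdc40 had 2, 2, 4 and 1 counts in Ctrl and 19, 22, 16 and 8 in YAP5SA, under the filter of the test. Rsph4a had 0 counts in Ctrl and 3, 2, 6 and 7 in YAP5SA replicates 1 to 4, at least 6.33-fold higher against a floor of 3 counts over the group.

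Of the 5 genes given the central apparatus role by name, none was tested. Cfap genes tied to this structure are counted with the Cfap family below. Cfap54 and Cfap206, which both rose, are examples and not a full list. That family also holds the falls of Cfap69 and Cfap45 and 18 genes that were not tested. Summed over the 4 libraries of a group, Hydin had 6 counts in Ctrl and 5 in YAP5SA, Spag16 had 0 and 1, Spag17 0 and 2, Spag6 6 and 1, and Spag6l 20 and 32. At these counts neither a level nor a difference could be resolved. Tektins, filament proteins inside the doublet microtubules, included a single tested gene. Tekt5, best known from the sperm flagellum, had 0, 0, 1 and 1 counts in Ctrl and 37, 36, 52 and 34 in YAP5SA, a ratio of counts per total of 83.9 (95% exact counting interval 22.8 to 698; adjusted p = 6.14e-07). Tekt5 reached the filter's 0.535 CPM in no Ctrl library, so that it passed through YAP5SA alone and had to differ. Tekt2 had 9, 13, 20 and 6 counts in Ctrl and 0, 7, 0 and 1 in YAP5SA and was under the filter. Tekt3 had 0 counts in all libraries, and Tekt1 and Tekt4 had at most 9 in all.

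Without the filter on low counts, 8 of the 51 untested members with counts were called (15.7%), against 8.55% of the 12343 other genes with counts that were under the filter. Ccdc40 (2.72, adjusted p = 0.000200), Cfap100 (2.27, adjusted p = 0.00146), Rsph4a, Cfap44 and Cfap58 were higher in YAP5SA, while Tekt2 (-2.56, adjusted p = 0.00202), Dnah9 (-1.78, adjusted p = 0.0408) and Spag8 were lower. Spag8 had 17 counts in Ctrl and 0 in YAP5SA, and Cfap44 had 0 and 12 counts. With the group at 0 set to the same floor, Spag8 was 5.37-fold lower and Cfap44 4.22-fold higher. These genes were singled out after their values were seen.

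The cilia and flagella associated proteins are a mixed family, named for association with cilia, flagella or both. The test covered 15 of 33 and called 10 higher and 2 lower, leaving 3. The share called was 80%, against 64.5% of all genes tested. Of the family 66.7% were higher and 13.3% lower, against 33.1% and 31.3% of all genes tested. Cfap54 reached the filter's 0.535 CPM in 0 Ctrl libraries, Cfap206 and Cfap47 in 1 each and Cfap300 in 3. All are among the 10 called higher. The filter kept Cfap54, Cfap206 and Cfap47 through YAP5SA, the group where they are high, so that these shares partly follow from it. Cfap300, a factor of dynein arm assembly, was at 1.47, 0.415, 0.834 and 0.670 CPM in Ctrl and 11.9, 9.94, 6.07 and 7.21 CPM in YAP5SA (3.36, SE 0.32, adjusted p = 5.78e-07). Cfap206, which acts at the radial spokes and central apparatus, was at 0.451, 0.296, 0.667 and 0.447 and 5.95, 5.36, 3.14 and 4.38 CPM (3.29, SE 0.31, adjusted p = 5.16e-07). Neither gene overlapped between groups, and the highest Ctrl level was 1.47 CPM for Cfap300. Cfap418, a gene tied to retinal degeneration, rose from 8.57, 5.75, 5.13 and 7.37 CPM to 23.6, 24.0, 24.7 and 25.6 CPM (1.88, SE 0.15, adjusted p = 8.06e-08), and Cfap36 from 48.1, 42.2, 46.0 and 36.4 CPM to 86.8, 88.0, 75.3 and 96.2 CPM (1.0, SE 0.10, adjusted p = 9.44e-07). Smaller differences were found for Cfap298 (0.60, SE 0.10, adjusted p = 9.78e-05), which is linked to dynein arm assembly, and Cfap20 (0.35, SE 0.10, adjusted p = 0.00786), a protein of the doublet microtubule. Cfap54, a central apparatus gene, was at 2.53 with 0 to 0.355 CPM in Ctrl. The X-linked Cfap47 was at 1.57 (adjusted p = 0.0127), or 2.18 without Ctrl replicate 4.

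The falls in this family were of Cfap69 and Cfap45. Cfap69, known from sperm flagella and olfactory cilia, was at 35.7, 36.1, 36.9 and 30.2 CPM in Ctrl and 8.40, 9.73, 7.78 and 7.30 CPM in YAP5SA (-2.07, SE 0.12, adjusted p = 2.57e-09). For Cfap45, a protein inside doublet microtubules, Ctrl libraries were spread widely at 10.1, 18.7, 18.5 and 6.98 CPM, and all lay above the YAP5SA values of 2.95, 4.16, 2.77 and 1.78 CPM (-2.23, SE 0.32, adjusted p = 3.01e-05). Cfap97 and Cfap43 lost their calls when single libraries were left out. Cfap97 (0.24, adjusted p = 0.0231) lost its call without any single library other than YAP5SA replicate 4 (adjusted p between 0.0522 and 0.0720), and Cfap43 (0.64, adjusted p = 0.0278) lost it without Ctrl replicate 1 (adjusted p = 0.0716), 2 (0.0661) or 4 (0.0857) or YAP5SA replicate 2 (0.0652) or 3 (0.0942). Cfap157 (-0.48, adjusted p = 0.113) and Cfap126 (0.43, adjusted p = 0.112) were not called.

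**Figure D4:**
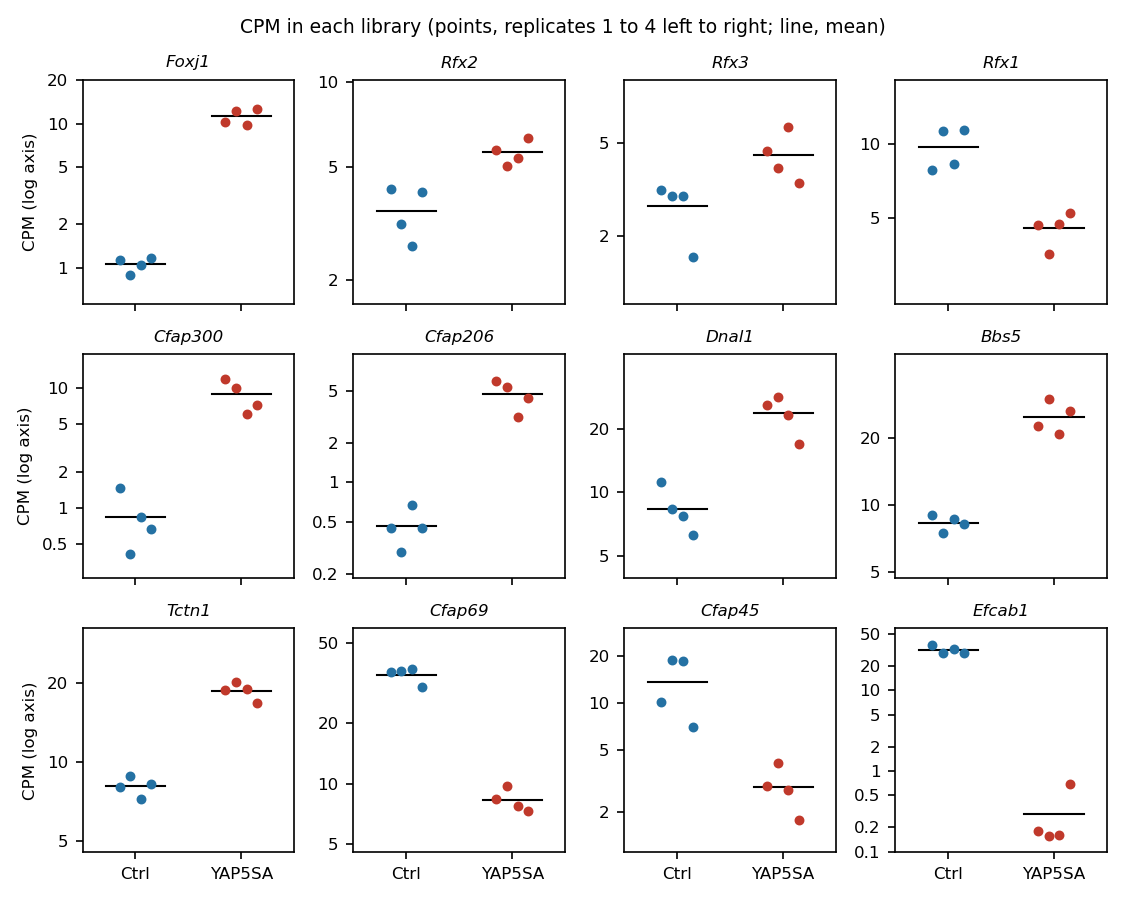
CPM on log axes in each of the 4 Ctrl (blue) and 4 YAP5SA (red) libraries for 12 members, with the group mean as a line. The 12 were picked by hand, and all are called members whose groups do not overlap. Of the 70 tested members 26 overlapped, and over all genes tested 58.7% did not overlap. Foxj1 rises from about 1 to above 9 CPM, while Rfx1, Cfap69, Cfap45 and Efcab1 are lower in YAP5SA, with YAP5SA replicate 4 of Efcab1 above the other three.

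The remaining Spag genes share a name from sperm antigen screens and not a place in the cilium. Spag7 was at 0.69 (SE 0.08, adjusted p = 7.02e-06) and the spindle gene Spag5 at 1.26 (SE 0.24, adjusted p = 0.000378), and Spag9, a scaffold of JNK signalling, was not called (0.19, adjusted p = 0.0663), but was called without Ctrl replicate 4 (0.26, adjusted p = 0.0103). Spag11a and Spag11b had 0 counts in all libraries, and Spag4 was not called (-0.23, adjusted p = 0.645).

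**Figure D5:**
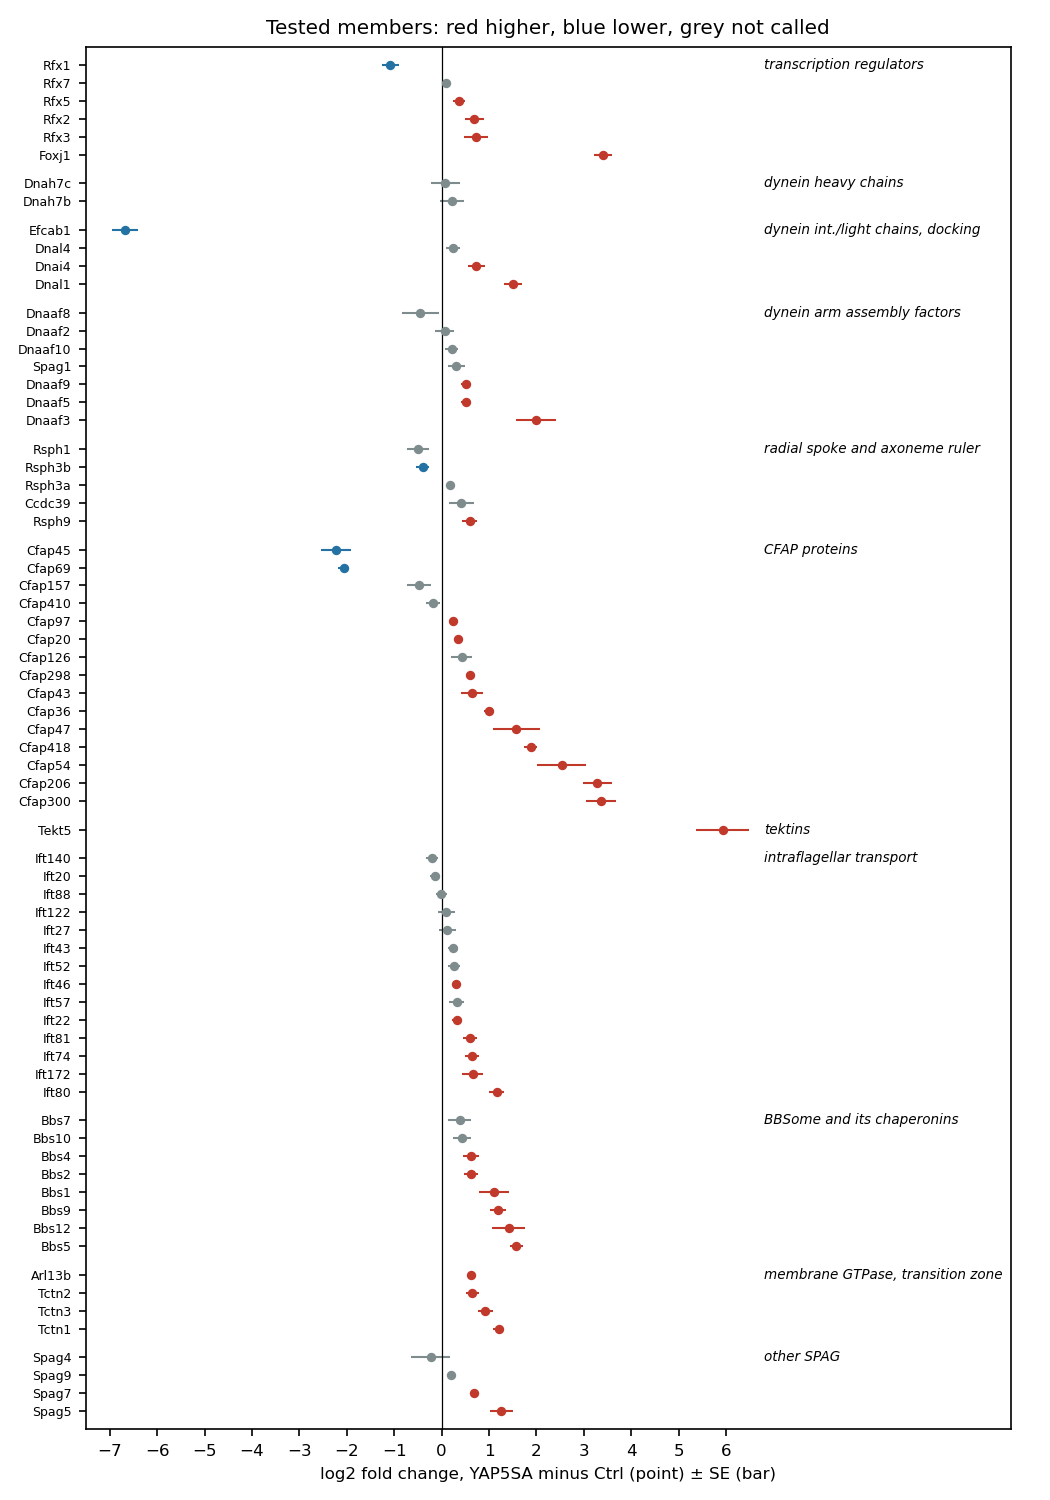
Log2 fold change (YAP5SA minus Ctrl, horizontal axis; bars are SE) of the 70 tested members, grouped by role; red points were called higher, blue lower and grey not called. Values run from -6.68 for Efcab1 to 5.93 for Tekt5, while transport, BBSome and transition zone genes lie between -0.21 and 1.58.

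Other cilium genes, 156 in 7 lists that do not match the symbol rule, were read from the same fit. The test covered 110 and called 43 higher and 28 lower, leaving 39 (64.5% called, the same as the background), with a median log2 fold change of 0.23. Of the 110, 39.1% were higher and 25.5% lower, against 33.1% and 31.3% of all genes tested. By list, the share higher was 58.8% for IFT motor and further IFT, 38.1% for transition zone, 47.6% for membrane trafficking and 9.52% for basal body genes. The share lower was 23.5%, 19%, 28.6% and 33.3% in the same order. Of 17 tested IFT motor and further IFT genes, 10 rose, 4 fell and 3 were not called. Among them the kinesin-2 genes Kif3a (0.79, SE 0.08, adjusted p = 6.03e-07) and Kifap3 (1.24, SE 0.12, adjusted p = 6.31e-07) and the A complex gene Wdr35 (1.61, SE 0.16, adjusted p = 6.48e-07) rose. Among 21 further transition zone genes tested, 8 rose and 4 fell, with Iqcb1 going from 4.01 ± 0.264 to 23.5 ± 2.75 CPM (SD, n = 4 each; 2.55, SE 0.13, adjusted p = 8.27e-10) and Tmem231 at 1.87 (SE 0.18, adjusted p = 7.41e-07). Ciliary membrane trafficking had 21 tested genes, of which 10 rose and 6 fell: the GTPase gene Arl3 (1.74, SE 0.09, adjusted p = 7.02e-10) and the adaptor gene Tulp3 (1.48, SE 0.16, adjusted p = 1.68e-06) rose, and Rab8a was at -0.67 (SE 0.07, adjusted p = 1.08e-06). Of 21 basal body genes tested, 2 rose, 7 fell and 12 were not called, and the lowest p-values among those called were those of Ninl (-1.18, SE 0.09, adjusted p = 5.46e-08), Cep350 (-1.10, SE 0.10, adjusted p = 5.40e-07) and Cep164 (-0.98, SE 0.10, adjusted p = 1.09e-06), the last a gene of the appendages that dock the basal body.

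Further axoneme genes were tested in 14 of 33, with 7 higher and 3 lower. That is 50% and 21.4%, against 33.1% and 31.3% of all genes tested. Nme5, a radial spoke gene, had 1, 5, 1 and 1 counts in Ctrl and 112, 109, 64 and 106 in YAP5SA (log2 fold change 5.41, or 6.38 without Ctrl replicate 2). Tppp3, a tubulin polymerization gene also used as a mark of ciliated airway cells, had 7, 1, 3 and 2 and 120, 143, 117 and 213 counts (log2 fold change 5.35, or 6.04 without Ctrl replicate 1). Nme5 and Tppp3, both among the 7, were under 0.535 CPM in every Ctrl library, so that they passed the filter through YAP5SA alone and had to differ. Dnajb13, a spoke cochaperone gene, went the other way (-2.25, SE 0.22, adjusted p = 8.22e-07). Markers of multiciliated cells outside the symbol rule were near 0 in both groups: none of 17 was tested, 3 (Deup1, Cdc20b and Sntn) had 0 counts, and their summed level was 0.838 to 1.54 CPM in Ctrl and 1.82 to 2.23 CPM in YAP5SA. Of 10 germ cell and sperm markers none was tested, Tnp1, Tnp2, Acrv1 and Odf1 had 0 counts, and their sum was 0.395 to 0.917 and 1.0 to 1.55 CPM. Mesenchymal markers, 10 in number with Col1a2, Lum and Postn at 0 counts, summed to at most 1.18 CPM in any library, and the 6 endothelial markers to at most 2.13 CPM. Of 7 immune markers the sum was 8.74 to 17.9 CPM in Ctrl and 67.1 to 74.0 in YAP5SA, carried by Cd68 and Csf1r, with Adgre1 at 0 counts and Ptprc at 15 and 3. The 7 tuft cell markers summed to 129 to 201 CPM in Ctrl and 25.1 to 30.5 in YAP5SA, carried by Avil in Ctrl and by Dclk1 and Avil in YAP5SA, with Gfi1b and Chat at 0 counts and Pou2f3 at 5 and 2. Of the 3 tuft markers tested, Avil fell, while Dclk1 and Trpm5 rose. The 6 neural and glial markers summed to at most 2.43 CPM, with Elavl4 and Sox10 among those at 0. The part of these cell types in the members' differences was not tested.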

How the data were processed

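RNA was measured in 8 libraries, 4 for each genotype. Sequencing was of total RNA, from either end of a fragment, per the labels' protocols. The authors deposited raw read counts per gene with no scaling. The build was mm9, and the tools were HTSeq 0.6.1, HISAT2 2.0.1 and cutadapt, per the submitters' processing notes. For annotation, strand setting and filters the status is: not given in the sources used here. So reads of overlapping or antisense genes cannot be assigned with certainty. Symbols were used as in the file. Of the list genes, 9 were matched through later symbols.

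Members were the rows matching a fixed symbol pattern, and were given roles by name. Members, lists and motifs were chosen with earlier results of these data known. In R 4.3.3, edgeR 4.0.16 (filterByExpr, count minimum 10, total minimum 15, TMM scaling, quasi-likelihood F test, two-sided, no covariate, Benjamini-Hochberg over 13812 genes, threshold 0.05) compared YAP5SA with Ctrl. SE is the log2 fold change over the square root of F. CPM are TMM-scaled. Replicates of a group differed by more than sampling noise (chi-square per degree of freedom 4.97 to 37.9). Exact 95% intervals and floors of 3 counts cover counting error only, as the reads carry no molecular identifiers. A floor covers only the group at 0 counts, and the counts of the other group are taken as exact. Data were also simulated with the same dispersion for every gene (biological coefficient of variation 0.127) and far fewer changed genes than were called here. There, with 13111 genes tested, 66.1% of 56 genes changed 1.5-fold and 87.7% of 65 changed 2-fold were recovered, and 6.06% of calls were false. As the settings differ from the data, these rates need not hold for the members, least of all at low counts. Alternatives were DESeq2 1.42.0, limma-voom (limma 3.58.1), RLE and library-size scaling, no filter, at least 1 CPM in 4 libraries, a replicate block and leaving out each library. Genes named are a fixed set of 31 members plus, in each role, up to 4 called with the smallest p and up to 2 not called with the largest difference, up to 3 called genes of each list, and members with 0 counts; others are given as examples chosen after their values were seen, and some listed genes are not reported here. Promoters come from RefSeq (GRCm38.p6), a build other than the authors' mm9.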

Additional observations from a re-analysis of the deposited data

Results flagged for a closer look

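In 140 sets of 4 replicate values of tested members, 12 had a library far from the other three by Dixon's criterion (95% level, on log2(CPM + 0.5)), where chance gives about 1 set in 20. In Ctrl replicate 4, Rfx3 was at 1.62 CPM (others 2.96 to 3.16), Cfap54 at 0 (0.282 to 0.355) and Spag9 at 163 (128 to 133). Ctrl replicate 3 had Arl13b at 16.6 CPM (17.7 to 17.9), and Ctrl replicate 2 had Dnah7b at 1.36 CPM (2.37 to 2.59). YAP5SA replicate 2 had Bbs9 at 14.2 CPM (10.7 to 11.2), Tctn2 at 14.6 (18.3 to 18.8) and Dnaaf5 at 13.5 (15.2 to 15.5). YAP5SA replicate 3 had Cfap157 at 1.81 CPM (2.0 to 2.03) and Ift22 at 21.7 (23.3 to 23.6). YAP5SA replicate 4 had Efcab1 at 0.684 CPM (0.156 to 0.182) and Ift43 at 20.2 (23.7 to 24.3). None of the values of Arl13b, Bbs9, Tctn2, Dnaaf5 and Efcab1 brought the groups into overlap.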

How the results depend on the processing

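Of the 44 calls among members, 44 were kept in the same direction with DESeq2, limma-voom, RLE scaling and the replicate block, 43 with library-size scaling, without the filter and at 1 CPM in 4 libraries, and 40 to 44 when a library was left out. Leaving out a library gave 36 to 43 members higher and 5 or 6 lower, against 39 and 5. Without the filter 45 members were higher and 9 lower, with 121 members tested. With library-size scaling 5742 genes were called higher and 3201 lower, against 4577 and 4330. Changes of sign concerned only members that were not called under either setting. Ift88 was at 0.17 with library-size scaling, 0.0030 with the 1 CPM filter and 0.0057 with the replicate block, and Ift20 at 0.031 with library-size scaling. With 1 library left out, log2 fold changes ran from -0.096 to 0.035 for Ift88, from -0.017 to 0.205 for Ift27, from -0.042 to 0.151 for Dnaaf2, from -0.062 to 0.217 for Ift122 and from -0.091 to 0.221 for Dnah7c. The cause was not tested. The labels do not say whether the replicate numbers pair the samples. Same-numbered deviations correlated at 0.09, 0.06, 0.11 and 0.34 for replicates 1 to 4. In Ctrl 2 of 4 libraries correlated best with their own number, and in YAP5SA also 2 of 4. These values do not settle whether the samples are paired. With the replicate block, 43 members were called higher and 6 lower, with 9 of 14 transport genes higher against 6, Ift43 (adjusted p = 0.0438), Ift52 (adjusted p = 0.0103) and Ift57 (0.0161) among them, and Rsph1 lower (-0.54). At this depth 59 of the 129 members were under the filter, 34 of them with fewer than 10 counts in all, and differences in these could not be resolved well.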

Other observations

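A list outside the symbol rule holds genes that modify tubulin, together with tubulins and the kinase gene Cilk1. It had 16 tested genes, of which 6 rose, 4 fell and 6 were not called (median log2 fold change 0.03). That is 37.5% higher and 25% lower, against 33.1% and 31.3% of all genes tested. Cilk1, a kinase of the ciliary tip that limits cilium length, was at 165, 171, 170 and 200 CPM in Ctrl replicates 1 to 4 and 21.0, 20.1, 26.2 and 24.6 CPM in YAP5SA replicates 1 to 4. That is -2.94 (SE 0.10, adjusted p = 2.10e-11), the steepest fall among the 110 other cilium genes tested. Mak, a related kinase gene, rose from 0.569 ± 0.275 to 1.68 ± 0.513 CPM (1.54, SE 0.40, adjusted p = 0.00398; SD, edgeR, n = 4 each). Of the tubulins in the list, Tuba1a rose from 24.2 ± 3.07 to 124 ± 16.4 CPM (2.35, SE 0.11, adjusted p = 4.11e-10) and Tubb4b fell from 888 ± 56.8 to 406 ± 28.6 CPM (-1.13, SE 0.08, adjusted p = 1.79e-08); reads of tubulin genes may be shared with close copies. Hdac6, a tubulin deacetylase gene, rose (1.28, SE 0.12, adjusted p = 3.23e-07), as did the tubulin acetyltransferase gene Atat1 (0.82, SE 0.17, adjusted p = 0.000768). The polyglutamylase gene Ttll7 was at -1.52 (SE 0.12, adjusted p = 7.12e-08). Mak, Hdac6, Atat1 and Ttll7 were chosen after their values were seen.

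Of the BBSome subunit genes outside the symbol rule, Bbip1 was at 0.23 (adjusted p = 0.0699) and Ttc8, also known as BBS8, at -0.36 (adjusted p = 0.193), neither called. Arl6, the GTPase that recruits the complex, was at 0.74 (SE 0.12, adjusted p = 0.000106), and Mkks, the BBS6 chaperonin-like gene, was at -1.10 (SE 0.13, adjusted p = 4.89e-06). The dynein-2 genes were at 1.74 (SE 0.18, adjusted p = 1.70e-06) for Dync2li1 and 0.23 (adjusted p = 0.186) for the heavy chain Dync2h1. These genes were likewise chosen after their values were seen.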
